A study of Mus musculus with 6 samples.

Results

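Macrophages and dendritic cells of the colon wall were followed through 10 genes, Cd14, Itgax, Fcer1g, Tyrobp, Csf1r, Adgre1, C1qa, C1qb, C1qc and Mrc1. Every probe set that the platform annotation assigns to 1 of these symbols was taken, which gave 14 probe sets among 22626 that are not controls, and all 14 passed the filter on dim probe sets. Of the genes tested, 8243 in all, these are 10. RNA came from the proximal colon of 8-week-old mice, 3 wild-type (labelled wt) and 3 heterozygous (labelled Mthfd1/+), and each array is 1 animal. The heterozygous line came from BayGenomics as a gene trap, and both genotypes ate the AIN-93G control diet for 5 weeks after weaning. The trap is not limited to a cell type by anything the labels say, and whole tissue was used, so a gene with higher signal may reflect more cells or more RNA per cell, which cannot be told apart in these arrays.

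Macrophages of the gut wall take up bacteria and dying cells, and most are replaced from blood monocytes under the control of the growth factor receptor Csf1r. Dendritic cells carry antigen to T cells and bear the integrin Itgax, also called CD11c, which many intestinal macrophages share. Cd14 hands bacterial lipopolysaccharide to its receptor, Fcer1g and Tyrobp are adaptor chains that couple surface receptors to the kinase Syk, C1qa, C1qb and C1qc are the 3 chains of complement C1q, and Adgre1 (F4/80) and Mrc1 (CD206) are surface proteins used to recognise macrophages. Fcer1g and Tyrobp are also made by natural killer cells, and Fcer1g by mast cells, so neither is exclusive to phagocytes.

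The genes of the 3 C1q chains lie next to each other in the mouse genome, and the stretch before the start of a myeloid gene often holds sites for PU.1, the transcription factor that defines the lineage. Of the 10 genes, 5 have an entry in the RefSeq promoter table of the mouse build GRCm38.p6 (Itgax, Fcer1g, C1qb, C1qc and Mrc1). The 250 bases before the start are shown for C1qb and C1qc, neighbours whose signal is compared below, and for Mrc1, the gene whose signal parted from the rest. Capitals mark the core letters of a PU.1 site, GAGGAA, or TTCCTC where the match is on the other strand. Cd14, Tyrobp, Csf1r, Adgre1 and C1qa are named only. C1qb is at chr4:136886201-136886450 and C1qc at chr4:136892915-136893164, both on the minus strand, and Mrc1 is at chr2:14229164-14229413 on the plus strand. Starts are those of the promoter table. By the gene table of the same build, the windows of C1qc and Itgax reach a short way into the gene.
C1qb: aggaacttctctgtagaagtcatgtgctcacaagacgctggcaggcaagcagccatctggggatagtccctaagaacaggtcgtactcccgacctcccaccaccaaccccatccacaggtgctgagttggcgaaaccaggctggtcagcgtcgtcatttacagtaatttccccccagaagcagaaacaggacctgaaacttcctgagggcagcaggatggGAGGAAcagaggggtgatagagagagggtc
C1qc: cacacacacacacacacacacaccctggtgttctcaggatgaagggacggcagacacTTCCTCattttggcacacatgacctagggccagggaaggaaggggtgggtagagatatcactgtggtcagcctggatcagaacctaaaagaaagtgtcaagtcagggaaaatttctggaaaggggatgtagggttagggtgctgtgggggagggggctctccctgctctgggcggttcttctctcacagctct
Mrc1: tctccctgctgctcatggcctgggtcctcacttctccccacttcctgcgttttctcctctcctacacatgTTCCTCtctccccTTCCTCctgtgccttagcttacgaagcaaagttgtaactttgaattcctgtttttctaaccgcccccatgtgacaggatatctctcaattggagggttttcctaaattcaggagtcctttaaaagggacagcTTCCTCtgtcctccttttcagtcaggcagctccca

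C1qb held 1 match, from 30 to 25 bases before the start, C1qc held 1, from 193 to 188 bases before it, and Mrc1 held 3, while Itgax and Fcer1g held 0. Over all 32851 promoter windows of the same length, 23.3% held at least 1 match on either strand. The gamma-activated site TTCNNNGAA, bound by interferon-activated STAT proteins and searched on both strands, was in 0 of the 5 windows and in 7.02% of all windows. The interferon-stimulated element, read as GAAA, any 2 bases and GAAA again on either strand, was likewise in 0 of the 5 and in 2.98% of all windows. A match is a run of letters and not a measured binding site.

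Signals are linear array intensities on 1 common scale, and no detection call was used here, so how far a dim probe set lies above background is unknown. Array medians ran from 156.85 to 168.25. The targeted gene followed the labels: at its brightest probe set, Mthfd1 averaged 890 in wild-type and 504 in heterozygous colon, and every heterozygous array lay below every wild-type array. Genotypes were compared by two-sided limma tests on log2(signal + 16), with Benjamini-Hochberg adjustment over all 13576 tested probe sets. At an adjusted p under 0.05, 0 probe sets were called (0%), and 771 (5.68%) had an unadjusted p under 0.05. None of the 14 probe sets studied here passed, with adjusted p from 0.679 to 0.993, so every difference below is a measured value and not a called change.

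The 10 genes leaned toward higher signal in heterozygous colon without a called gene among them. At the brightest probe set, 9 of 10 genes had a log2 fold change above 0, with a median of 0.28, whereas 51.5% of all tested genes lay above 0, with a median of 0.005. Of the 10, 3 (Cd14, Itgax and Fcer1g) had an unadjusted p under 0.05, all higher in heterozygous colon, against 5.34% of all tested genes in either direction and 3.15% higher. In 5 of the 10 genes (Cd14, Itgax, Fcer1g, Csf1r and C1qc) every heterozygous array lay above every wild-type array, and in 0 genes did the reverse hold. Among all tested genes 5.58% separated as higher and 5.07% as lower. Heterozygous replicate 3 is the highest array for all 5, so leaving it out could not lower this count (5 of 10, against 8.07% of all tested genes) and says nothing of stability. The 10 genes share cell types and arrays and were proposed with the direction of several of them known, so these counts are a description and not 10 independent results. After quantile normalization, tried after seeing the data, 3 of the 5 separated and Cd14 and Csf1r overlapped. The share of all tested genes that separate was not counted under that setting.

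**Figure D1:**
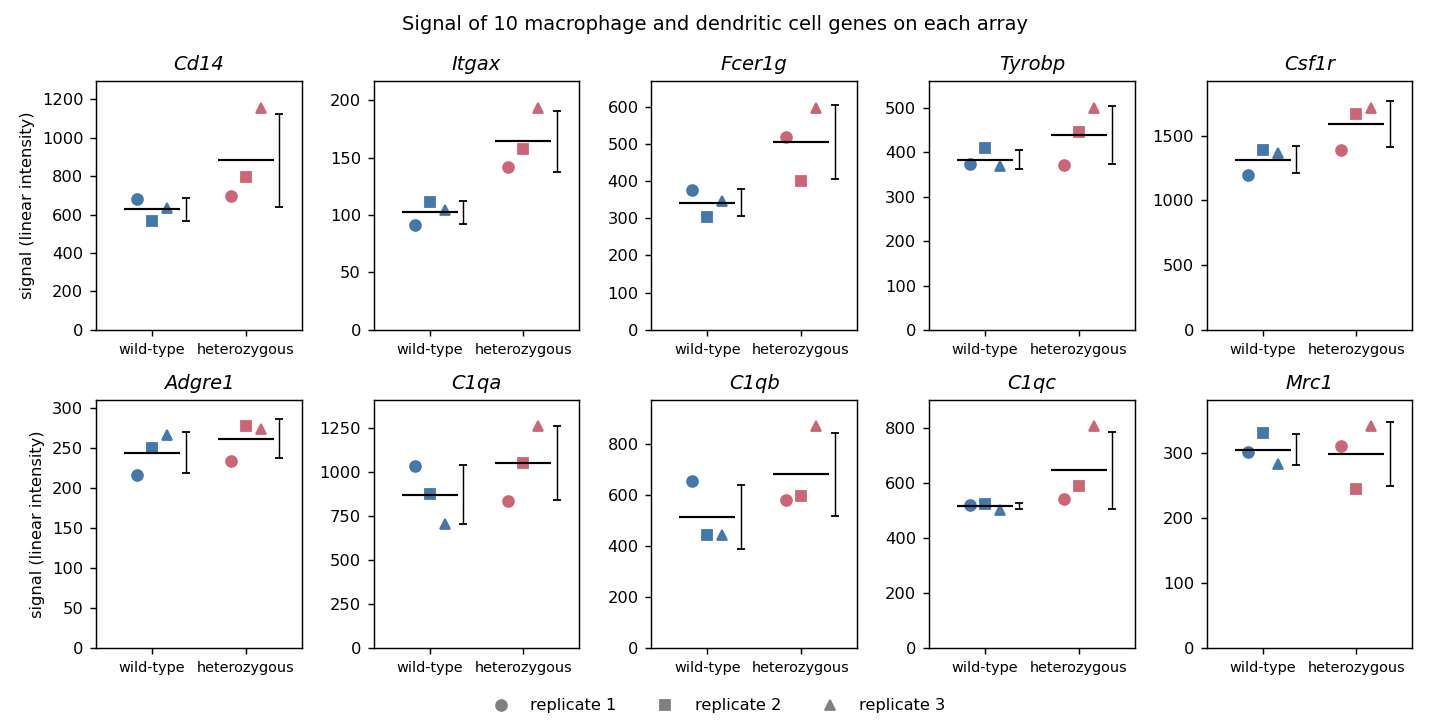
Signal (linear intensity, axis from 0) of the brightest probe set of each gene on the 3 wild-type (blue) and 3 heterozygous (red) arrays; symbols mark the replicate number, horizontal lines the mean and bars the SD. Heterozygous replicate 3 (red triangle) is the highest array for 9 of the 10 genes, and Itgax keeps the clearest gap between the genotypes, from 111.2 to 142.1.

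Cd14, the co-receptor for bacterial lipopolysaccharide, read 682.3, 566.0 and 634.3 in wild-type replicates 1, 2 and 3 and 699.1, 794.9 and 1156.7 in the heterozygous replicates. The groups did not overlap, but heterozygous replicate 1 was only slightly above wild-type replicate 1, and heterozygous replicate 3 stood well above all others. The means were 628 ± 58.4 and 884 ± 241 (SD, n = 3 each), a log2 fold change of 0.45 (SE 0.18, limma adjusted p = 0.821). Without heterozygous replicate 3 the log2 fold change was 0.25.

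Itgax, the CD11c integrin chain of dendritic cells and gut macrophages, read 91.3, 111.2 and 104.8 in wild-type and 142.1, 157.3 and 193.5 in heterozygous colon. All 3 heterozygous arrays were above all 3 wild-type arrays, with the widest gap of the 10 genes relative to its level. The means were 102 ± 10.2 and 164 ± 26.4 (SD, n = 3 each), 1.6 times the wild-type mean, and the log2 fold change of 0.60 (SE 0.18, 95% interval 0.20 to 1.0) was the highest of the 10. Its limma adjusted p was 0.679, with 0.38 to 1 over the alternatives. The log2 fold change stayed between 0.49 and 0.69 with any 1 array left out. This probe set is dim, at an average not far above the filter of 95.8, so a fold change on the log2(signal + 16) scale is understated.

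The adaptor chains Fcer1g and Tyrobp differed in their pattern. Fcer1g, the common gamma chain of Fc receptors, read 376.1, 303.7 and 346.9 in wild-type and 517.1, 400.5 and 597.1 in heterozygous colon. The groups did not overlap, and heterozygous replicate 2 was the closest to the wild-type arrays. The log2 fold change was 0.53 (SE 0.17, limma adjusted p = 0.696), and it was 0.40 at the lowest when 1 array was left out.

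Tyrobp (DAP12), which pairs with receptors such as Trem2, read 374.7, 409.0 and 368.6 in wild-type and 370.8, 447.0 and 500.9 in heterozygous colon. Heterozygous replicate 1 lay among the wild-type arrays, so the groups overlapped. The log2 fold change was 0.18 (SE 0.14, 95% interval -0.14 to 0.50, limma adjusted p = 0.926). Fcer1g and Tyrobp thus ranked heterozygous replicates 1 and 2 in opposite order. Whether the fold changes of these genes differ from each other was not tested.

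Csf1r, the receptor through which macrophages receive their survival signal, has 3 probe sets that did not give the same picture. The brightest read 1193.0, 1386.4 and 1364.9 in wild-type and 1388.3, 1663.7 and 1714.8 in heterozygous colon, a log2 fold change of 0.27 (SE 0.12, limma adjusted p = 0.888). The groups were apart by less than 2 units of signal. The other probe sets had log2 fold changes of 0.10 and 0.03 with overlapping groups, and over the 6 arrays they correlated with the brightest at r = 0.44 and 0.40 only. With the mean of the 3 probe sets the genotypes overlapped, so the separation at Csf1r rests on 1 probe set.

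Adgre1, the F4/80 surface protein, read 216.6, 249.9 and 266.7 in wild-type and 234.0, 277.3 and 274.1 in heterozygous colon, with overlapping groups and a log2 fold change of 0.09 (SE 0.14). Of the 10 genes at their brightest probe sets it had the narrowest range, the highest array being 1.28 times the lowest. Mrc1, the mannose receptor of resident macrophages, read 301.3, 331.6 and 283.7 in wild-type and 310.7, 245.7 and 341.7 in heterozygous colon. Heterozygous arrays supplied both its highest and its lowest value. Its log2 fold change of -0.04 (SE 0.15, 95% interval -0.38 to 0.31) was the only one below 0 among the 10 at all 6 arrays. Mrc1 is also carried by lymphatic and some other endothelial cells, whose marker list had a median log2 fold change of 0.01 over 8 measured genes.

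**Figure D2:**
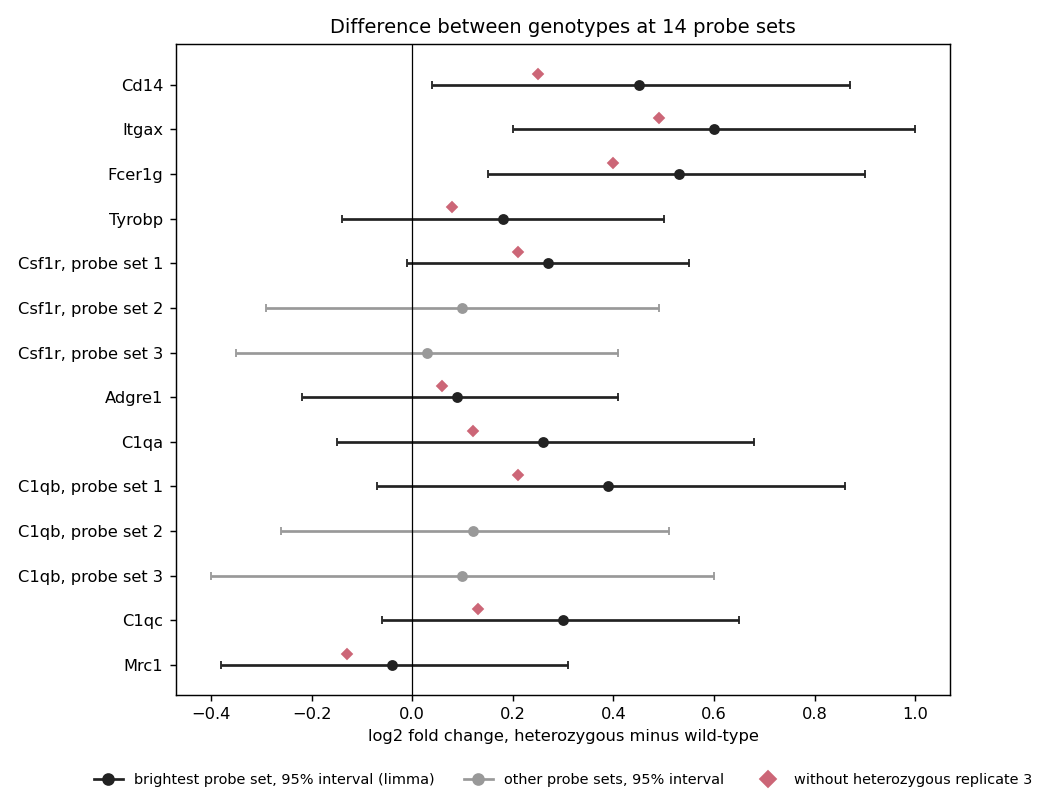
Log2 fold change, heterozygous minus wild-type, at each of the 14 probe sets, with the 95% interval from limma; black is the brightest probe set of a gene, grey the others, and diamonds the value without heterozygous replicate 3. Intervals of Cd14, Itgax and Fcer1g lie above 0 before adjustment. All 10 diamonds lie to the left of their points, as they must, since the array left out was above the heterozygous mean in every gene.

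The C1q chains, which are made together by tissue macrophages and start the classical complement pathway, all had a higher mean in heterozygous colon, and C1qa and C1qb varied widely within wild-type. C1qa read 1036.2, 877.6 and 704.6 in wild-type and 838.7, 1054.8 and 1261.0 in heterozygous colon (log2 fold change 0.26, SE 0.18). Wild-type replicate 1 was above heterozygous replicate 1, and the groups overlapped. C1qb, at its brightest probe set, read 656.4, 441.9 and 442.9 in wild-type and 578.4, 594.4 and 868.9 in heterozygous colon (0.39, SE 0.20), again with wild-type replicate 1 above heterozygous replicates 1 and 2.

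C1qc read 522.3, 525.8 and 504.7 in wild-type and 544.4, 591.9 and 808.0 in heterozygous colon. Its wild-type arrays were close together, with an SD of 11.3 around 518, and the groups did not overlap, but heterozygous replicate 3 carried most of the difference. The log2 fold change was 0.30 (SE 0.16, limma adjusted p = 0.912) and 0.13 without that array. The dimmer probe sets of C1qb had log2 fold changes of 0.12 and 0.10 with overlapping groups. They correlated with the brightest at r = 0.45 and 0.78 over the 6 arrays, and their names end in x_at, the suffix for probes that may bind other transcripts.

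A single animal bore on all of these values. Heterozygous replicate 3 was the highest array for 9 of the 10 genes, against 20.8% of all tested genes, and for Adgre1 it was second to heterozygous replicate 2. The mean of the centred log2 values over the 10 genes was -0.11, -0.15 and -0.19 in wild-type replicates 1, 2 and 3 and -0.01, 0.07 and 0.40 in heterozygous replicates 1, 2 and 3. Since heterozygous replicate 3 lay above the heterozygous mean in every gene, leaving it out had to lower the log2 fold change of all 10 genes. The size of the drop was not fixed, and their median went from 0.28 to 0.17. Of the fold changes above 0, the 9 genes remained above 0, and those of Cd14, Tyrobp, Adgre1, C1qa, C1qb and C1qc shrank by over 1.5 times.

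Most of the genes went up and down together over the 6 arrays. Of 45 pairs, 43 had a Pearson r above 0, the median r was 0.64, and 16 pairs had r of 0.80 or more after rounding. With 1 array left out, that last count ran from 6 without heterozygous replicate 3 to 23 without wild-type replicate 1. The exact two-sided permutation test of the 720 pairings gave 18 pairs an unadjusted p under 0.05 and 0 pairs an adjusted p under 0.05 (smallest 0.0625, and 0.125 for Spearman's rho). The 6 arrays are of 2 genotypes, so r was also taken after removing the mean of each genotype, which left a median of 0.54 and 9 pairs at 0.80 or more.

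The closest pair was Cd14 with C1qc, at r = 0.96 and rho = 0.83 (exact permutation p = 0.0125 and 0.0583, adjusted over the pairs 0.113 and 0.292). It was 0.93 with genotype means removed and 0.99 without heterozygous replicate 3 and wild-type replicate 2, the 2 arrays farthest from the median of Cd14. Without heterozygous replicate 3 alone it was 0.78. These genes are on different chromosomes and share no probe set.

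Itgax and Csf1r followed at r = 0.93 with the same order of all 6 arrays (rho = 1.0, exact permutation p = 0.00139 for r, the smallest that 720 pairings can give, and 0.00278 for rho; adjusted 0.0625 and 0.125). The value was 0.87 with genotype means removed and 0.77 without the 2 arrays farthest from the median of Itgax. It held at 0.88 without heterozygous replicate 3. Csf1r entered with its brightest probe set, on which the separation of the genotypes also rests.

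Within the C1q chains, C1qa and C1qb had r = 0.88 and rho = 0.77 (exact permutation p = 0.0361 and 0.103), C1qb and C1qc r = 0.83 and rho = 0.54 (0.0417 and 0.297), and C1qa and C1qc r = 0.80 and rho = 0.77 (0.0403 and 0.103). The adjusted p was 0.115 for each of the 3 by r. Leaving out the 2 arrays farthest from the median of the first gene gave 0.59, 0.47 and 0.40, so the agreement between the chains rested in part on those arrays. The adaptor chains were less alike, with Fcer1g and Tyrobp at r = 0.49 and rho = 0.43 (exact permutation p = 0.315 and 0.419; adjusted 0.468 and 0.590), 0.05 with genotype means removed and -0.21 without heterozygous replicate 3.

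Tyrobp instead tracked C1qc (r = 0.91, rho = 0.83; exact permutation p = 0.0125 and 0.0583; adjusted 0.113 and 0.292) and Csf1r (r = 0.88, rho = 0.71; exact permutation p = 0.0181 and 0.136; adjusted 0.115 and 0.292). Without the 2 arrays farthest from the median of Tyrobp, heterozygous replicates 2 and 3, these were 0.11 and 0.26, over 4 arrays. Both were 0.80 without heterozygous replicate 3 alone, and 0.86 and 0.83 with genotype means removed, so they rested on the 2 arrays together and not on 1 of them. Csf1r and Adgre1, macrophage surface proteins, had r = 0.86 and rho = 0.71 (exact permutation p = 0.0458 and 0.136; adjusted 0.115 and 0.292), 0.93 with genotype means removed, 0.74 without the 2 farthest arrays and 0.84 without heterozygous replicate 3. Adgre1 was near 0 with C1qa (0.14) and C1qb (0.04).

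Mrc1 stood apart from the other 9 genes. Its r with them ran from -0.26 to 0.33 with a median of 0.16, whereas the 36 pairs without Mrc1 had a median of 0.79. Without heterozygous replicate 3, all 9 of its values were below 0, from -0.81 with Cd14 to -0.18 with Fcer1g, and the median of the other 36 pairs was 0.53. Without heterozygous replicate 2, the array where Mrc1 was lowest, all 9 were instead above 0, from 0.27 with Adgre1 to 0.83 with Tyrobp. The low r of Mrc1 over all 6 arrays thus rested on heterozygous replicate 2. These values over 5 arrays are a description with no test.

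**Figure D3:**
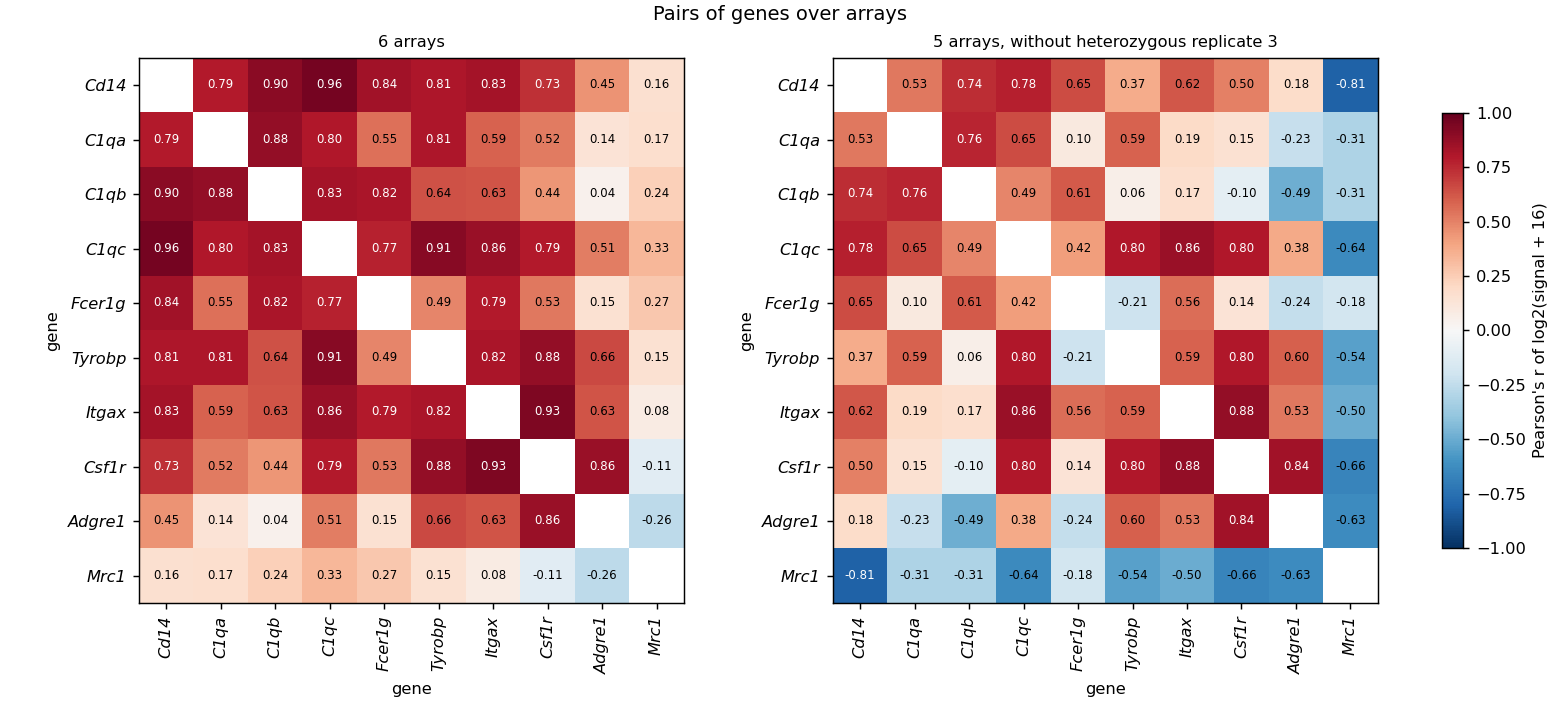
Pearson's r of log2(signal + 16) for each pair of the 10 genes, over all 6 arrays (left) and over the 5 arrays without heterozygous replicate 3 (right), on a colour scale from -1 to 1. The block of red on the left thins on the right, where the median r over the 45 pairs is 0.38 in place of 0.64, and the row of Mrc1 turns blue. Without heterozygous replicate 2, which is not drawn, every r of Mrc1 is above 0.

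Genes outside the 10 with the pattern most like the mean of the C1q chains over the 6 arrays were Ripk3, a kinase of necroptosis (r = 0.989), Deaf1 (0.984), the progenitor and endothelial surface protein Cd34 (0.979), the carbonyl reductase Cbr2 (0.978), Bsg, also called CD147 (0.976), and Grwd1 (0.976). These were picked as the 6 highest of 8233 genes outside the list, of which 87, or 1.06%, reached an r of 0.9 over the 6 arrays. Most like the mean of Fcer1g and Tyrobp were Stk16 (0.992), Dnajc13 (0.992), the ribosomal protein gene Rps4x (0.985), Pon1 (0.982), Rab40c (0.980) and 1110059E24Rik (0.979), and 95 genes, 1.15%, reached 0.9. Nothing is drawn from these likenesses about shared control.

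Partner genes of the same pathways were read from 7 lists, of which 0 genes passed at a limma adjusted p under 0.05. In the lipopolysaccharide receptor pathway, 8 of 11 measured genes were above 0 (median log2 fold change 0.14). The one that stood out was Tlr2, the receptor for bacterial lipopeptides that also uses Cd14, with 180.7, 283.2 and 276.4 in wild-type and 412.5, 548.1 and 578.1 in heterozygous colon. Its groups did not overlap, and its log2 fold change was 1.02 (SE 0.20, limma adjusted p = 0.279), and 0.93 without heterozygous replicate 3. The adaptor Myd88 had 0.22 and Tirap 0.28, and Tlr4, the receptor that Cd14 serves, had 0.33 (0.49 at another probe set) with overlapping groups, from 65.5 to 164.3 in wild-type and from 104.4 to 143.6 in heterozygous colon.

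Among ITAM signalling and Fc receptor genes, 7 of 10 were above 0 (median 0.21, and 0.13 without heterozygous replicate 3). Plcg2, the phospholipase downstream of Syk, was lower in every heterozygous array, with 311.8, 391.1 and 345.4 in wild-type and 249.6, 203.2 and 233.2 in heterozygous colon (log2 fold change -0.58, SE 0.14, limma adjusted p = 0.607). Hcst (DAP10), an adaptor related to Tyrobp, had 0.57, and the inhibitory Fc receptor Fcgr2b had 0.33, with groups apart in both, but other probe sets of Fcgr2b had 0.09, 0.09 and 0.26. Hcst and Lcp2 averaged 83.3 and 77.3 in wild-type, below the filter of 95.8, and passed through their heterozygous arrays. Their direction therefore followed from the filter, and the count of 7 and the median draw on both. Syk itself had -0.07, with 0.29 at another probe set, and Fcgr3, which signals through Fcer1g, had 0.20 (0.03 without heterozygous replicate 3), both with overlapping groups.

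Of the complement partners, 7 of 9 were above 0 (median 0.12, and 0.03 without heterozygous replicate 3). C1s1 and C1ra, which encode the proteases that assemble with C1q, had 0.24 and 0.13, and the C1 inhibitor Serping1 had 0.12, each with overlapping groups, as had Calr at 0.20. All 4 measured integrin partners were above 0 (median 0.26), led by Itgb2, the beta chain that pairs with Itgax, which read 142.3, 93.0 and 179.6 in wild-type and 150.8, 268.5 and 319.9 in heterozygous colon (0.75, SE 0.29, limma adjusted p = 0.814). Unlike Itgax, its groups overlapped, since heterozygous replicate 1 lay below wild-type replicate 3. Icam1, a ligand of such integrins, had 0.45 and Tln1 had 0.07.

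The remaining 3 lists were centred near 0. In the Csf1 axis, 2 of 4 genes were above 0 (median 0.05): the ligand Csf1 had -0.24, Csf2ra had 0.14 and Kitl, the ligand of Kit, had 0.41, with 0.11 at another probe set. Mannose and scavenger receptors were above 0 in 5 of 9 (median 0.02), with Scarb1 at -0.24 (0.09 and -0.19 at other probe sets), Msr1 at -0.31 and Cd163, a marker of resident macrophages, at 0.27. Myeloid transcription factors were above 0 in 5 of 9 (median 0.02, and -0.09 without heterozygous replicate 3), with Relb at 0.40, Klf4 at -0.20 (0.05 at another probe set) and Nr4a1 at -0.45. Spi1, which encodes PU.1, was below the filter.

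Other markers of the cell types named by the label gave a smaller picture. Intestinal macrophage markers outside the 10 were above 0 in 6 of 9 (median 0.18, and 0.11 without heterozygous replicate 3). Their summed signal ran from 3619 to 4545 in wild-type and from 3692 to 4981 in heterozygous colon. Aif1 (0.33) was apart between the groups, Mertk (0.30) and Lyz2 (0.20) were not, and Cd68 had -0.13. Of 11 dendritic cell markers on the array, 9 were below the filter, among them Flt3, Zbtb46, Batf3 and Xcr1. The 2 measured, Itgae (0.44, groups apart) and Cd83 (0.23), are not restricted to dendritic cells. The dendritic part of the label is therefore carried by Itgax, which macrophages share.

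Lists for other white cells mostly had medians above 0, but their arrays were not ordered alike. All 8 pan-leukocyte genes were above 0 (median 0.48), led by Ptprc (CD45) with 507.8, 550.2 and 831.2 in wild-type and 888.4, 1173.4 and 1394.7 in heterozygous colon (0.86, SE 0.22, limma adjusted p = 0.608), Cd48 (0.54) and Laptm5 (0.51, with 0.10 at another probe set). Wild-type replicate 3 lay above heterozygous replicate 1 in the mean of this list (0.12 and 0.06). Their summed signal ran from 2328 to 3790 in wild-type and from 3604 to 4895 in heterozygous colon. Class II genes, which antigen-presenting cells express, were above 0 in 5 of 5 (median 0.69, and 0.45 without heterozygous replicate 3), and their mean centred log2 value was -0.39, -0.34 and -0.27 in wild-type and -0.11, 0.23 and 0.88 in heterozygous replicates 1, 2 and 3. The mean of the 10 genes had the same order of the heterozygous arrays, as had, among others, the pan-leukocyte, T-cell, natural killer, interferon, intestinal macrophage and lipopolysaccharide pathway lists. H2-Aa had 0.69 (0.98 at another probe set), H2-Eb1 0.57 and Cd74 0.76 (0.45 without heterozygous replicate 3).

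T-cell genes were above 0 in 4 of 5 (median 0.65), and natural killer genes in 3 of 4 (median 1.11, and 0.66 without heterozygous replicate 3). No array was lower than heterozygous replicate 1 in their mean centred values, at -0.38 and -0.85, whereas heterozygous replicate 2 had 0.46 and 1.02 and heterozygous replicate 3 had 0.66 and 1.27. The low T-cell mean came with Zap70, at 205.8 in heterozygous replicate 1 and from 392.3 to 490.4 in wild-type. In the same array Cd3d, Cd3g and Ccl5 lay within the wild-type range, and Il7r, at 135.3, lay above all wild-type arrays. Gzma had 56.5, 102.4 and 26.4 in wild-type and 22.8, 466.2 and 692.5 in heterozygous colon, Gzmb had a log2 fold change of 1.85 and Klrd1 of 0.49. Gzma, Gzmb and Cd3d averaged 61.8, 31.9 and 92.9 in wild-type, below the filter of 95.8, and passed through heterozygous arrays. Their higher heterozygous mean therefore followed from the filter, and the counts and medians of the T-cell and natural killer lists draw on it. Gzmb read 19.4 in heterozygous replicate 1, below the 40.5 and 50.9 of wild-type replicates 1 and 2. Il7r (0.58) and Cd3d (0.92) were higher on average, and Zap70 (-1.64) was lower in all 3 heterozygous arrays, at its 1 tested probe set. Summed signal ran from 843 to 1005 and from 716 to 2576 for the T-cell list, and from 411 to 496 and from 364 to 1503 for the natural killer list, in wild-type and heterozygous colon.

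Interferon-response genes were above 0 in 9 of 9 (median 1.45), with Ifit1 at 1.91, Rtp4 at 1.91 and Rsad2 at 1.45 (limma adjusted p = 0.0583, 0.0583 and 0.0687). Other probe sets of Rsad2 had 0.87 and 0.99. Their mean centred value was -0.61, -0.99 and -0.53 in wild-type and 0.21, 0.94 and 0.99 in heterozygous replicates 1, 2 and 3. Their summed signal ran from 2022 to 2497 and from 4560 to 7944. Of the measured interferon-response genes, Cxcl9 and Usp18 averaged 72.1 and 83.1 in wild-type, below the filter of 95.8, so their direction followed from the filter. What part of the differences in the 10 genes goes with white cells of other types or with the interferon genes was not tested.

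**Figure D4:**
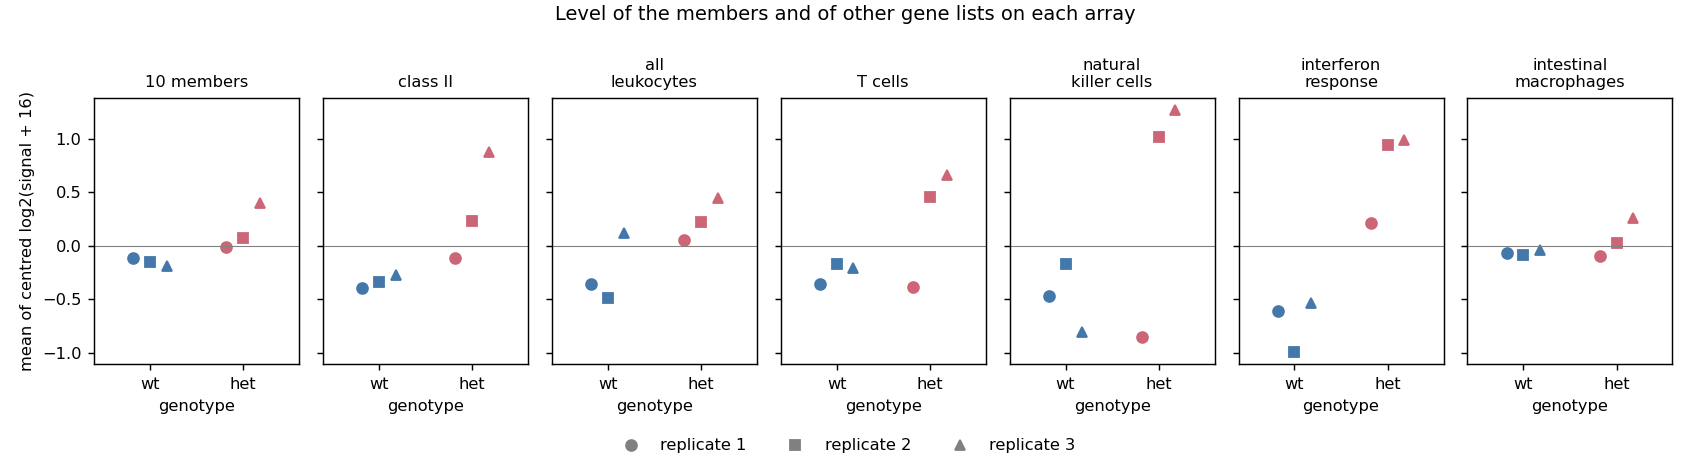
Mean of centred log2(signal + 16) on each array for the 10 genes and for 6 other gene lists, with wild-type in blue, heterozygous in red and symbols for the replicate number. Heterozygous replicate 3 is the highest array in all 7 panels, and heterozygous replicate 1 is the lowest of the 6 arrays for the T-cell and natural killer genes, at -0.38 and -0.85, and for the intestinal macrophage genes, at -0.09. None of the measured T-cell genes, Cd3d, Cd3g, Il7r, Ccl5 and Zap70, was itself lowest on heterozygous replicate 1.

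Neutrophil and monocyte genes gave no measured value, since all 9 on the array, among them S100a8, S100a9 and Ccr2, were below the filter. Of the mast cell genes, Mcpt2 (0.70) and Kit (-0.05, with 0.50 at another probe set) were measured and 6 were below the filter. Of the B-cell genes, 1 of 7 was measured, Ms4a1, at -0.33. Structural cells showed no shared direction: medians were 0.01 for 8 endothelial and lymphatic genes, 0.01 for 5 adipocyte genes, -0.05 for 7 colon epithelial genes, -0.19 for 6 smooth muscle genes and -0.25 for 3 ileal genes. Without heterozygous replicate 3 the endothelial, adipocyte and ileal medians were -0.07, -0.03 and -0.07. In these lists Cdh5 had -0.37, Retn 0.27, Slc26a3 -0.24, Des -0.40 and Slc10a2 -0.25, the smallest unadjusted p of each list. Summed signal ran over 17511 to 26023 and 19336 to 24107 for adipocyte genes, and over 323 to 13687 and 666 to 9836 for ileal genes, in wild-type and heterozygous colon. The ileal sum varied widely within both genotypes, and wild-type replicate 3 was lowest in it (mean centred value -2.46), as it was for C1qa.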

How the data were processed

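Each of 6 arrays, 3 per genotype, held RNA from the proximal colon of 1 mouse. The authors deposited a linear intensity for each probe set, made with GCOS per the submitters' processing notes. Its version is not given in the sources used, nor are its settings. The mean of each array without its top and bottom 2% of probe sets was 500.2, so the arrays share 1 scale, and a change in total RNA cannot be seen. The number of arrays limits the precision.

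Of 22690 probe sets, 64 controls were left out. Symbols came from the platform annotation, of which 20380 probe sets have 1, 691 several and 1555 none; the GRCm38.p6 gene table altered 0. Values entered as log2(signal + 16), array medians differed by 0.09, and the filter required a mean signal of at least the 40th percentile, 95.8, which left 13576 probe sets and 8243 genes. The genotype test was limma 3.58.1 (R 4.3.3, variance trend, two-sided), and the steps were tested on simulated data. A gene is its brightest tested probe set. The filter used the mean over all arrays, so a gene below 95.8 in one genotype passed only through the other. That fixed the direction of Gzma, Gzmb, Cd3d, Hcst, Lcp2, Clec10a, Cxcl9 and Usp18 as higher and of Msr1 and Cdh5 as lower. The exact permutation test of 3 against 3 arrays cannot go below 0.1, which Cd14, Itgax, Fcer1g, Csf1r and C1qc gave. Named are the 10 genes, up to 3 genes per list by smallest p, and the 6 most alike to each of 2 means; Tlr4, Syk, Fcgr3, C1ra, Spi1 and Cd68 were added after their values were seen for their roles. The 10 genes and the 22 lists were chosen with earlier results of these data known. Alternatives were other pseudocounts, filters, normalizations, variance models, probe set rules, a replicate block and leaving out each array.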

Additional observations from a re-analysis of the deposited data

How the results depend on the processing

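At its brightest probe set, or the mean of its probe sets where that was the setting, no gene of the 10 passed under any of the 16 alternatives tried for each gene (lowest limma adjusted p 0.38), and 158 of 160 such values kept their direction; Mrc1 was 0.02 without wild-type replicate 2 and 0.09 without heterozygous replicate 2, in a range from -0.13 to 0.09 with 1 array left out. The count over all probe sets was 8 with robust variance, 4 with array weights and 2 with 1 probe set per gene, and ran from 0 to 38 when 1 array was left out, highest without heterozygous replicate 1. With the replicate number as a block, 0 probe sets passed and 925 had an unadjusted limma p under 0.05, so the block changed no call. Deviations of same-numbered arrays correlated at r = -0.12, 0.50 and 0.05, and those of differently numbered arrays at r from -0.48 to 0.42. The labels do not say whether the numbers pair the animals, and so few values cannot settle it. The median log2 fold change of the 10 genes ran from 0.23 to 0.30 over the other settings and from 0.17 to 0.41 with 1 array left out. The median r over pairs ran from 0.38 without heterozygous replicate 3 to 0.81 without wild-type replicate 1. The genes whose groups did not overlap were 3 after quantile normalization, 5 after median centring and 4 when all probe sets of a gene were averaged, settings added for this count after seeing the data. The share of all tested genes that separate was not counted under these settings, so these counts have nothing to be set against. Signal over background is not known for single probe sets, a limit for dim ones such as Itgax.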
